A study of Rattus norvegicus with 17 samples.

Results

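Type IV collagen is the sheet-forming collagen of basement membranes, and its 6 chains are encoded by Col4a1, Col4a2, Col4a3, Col4a4, Col4a5 and Col4a6. The chains were taken by gene name from a table of read counts of rat gastrocnemius, a calf muscle, and make up 6 of its 32495 named entries. The members were chosen by family name, and the family was selected on measured values of these samples: earlier results had Col4a1 and Col4a2 lower in tumor with chemotherapy than in healthy muscle, and Col4a5 among the smallest p-values of tumor against healthy. All values set against healthy muscle are therefore given as descriptions. The same chemotherapy and tumor samples enter the comparison of tumor with chemotherapy against tumor, so its p-values are not independent of that choice.

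RNA was sequenced from 3 groups of rats, all on the control diet. The group called tumor with chemotherapy held 6 samples from tumor-bearing rats that had received chemotherapy, the group called tumor held 5 samples from tumor-bearing rats without chemotherapy, and the group called healthy held 5 samples. From 10 mg of muscle per sample, total RNA with an integrity number above 9.0 went into stranded libraries after removal of ribosomal RNA. The sources used here do not name the tumor, the agent and its dose, or the strain, sex and age of the rats. Nothing in the labels says that the samples of a group came from separate animals, so p-values measure only the spread between these samples, which may be technical.

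Each type IV collagen molecule is a triple helix of 3 chains, and the helices join end to end and side to side into a network that carries laminins, nidogens and perlecan. The alpha1 and alpha2 chains, from Col4a1 and Col4a2, form the network found in nearly every basement membrane, including the sheath around each muscle fiber and around capillaries. The alpha3, alpha4 and alpha5 chains assemble together and are best known from the kidney glomerulus, where their loss in people causes Alport syndrome, and alpha5 also assembles with alpha6. The genes lie head to head in pairs, Col4a1 beside Col4a2, Col4a3 beside Col4a4 and Col4a5 beside Col4a6, so that the members of a pair are read in opposite directions from neighbouring starts.

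The start regions are shown because the members of a pair are compared with each other in what follows. All 6 symbols matched a RefSeq promoter window of 300 bases, from 250 bases before to 50 after the annotated start, on build GRCr8. The starts of Col4a2 and Col4a1 lie 77 bases apart, those of Col4a4 and Col4a3 413 bases apart, and those of Col4a6 and Col4a5 1415 bases apart. The windows therefore share 176 bases in the first pair, 88 in the second and 0 in the third. In the Col4a1 window (chr16:84885347-84885646, plus strand), capitals mark the 76 bases between the starts of Col4a1 and Col4a2. In the Col4a3 window (chr9:91323740-91324039, plus strand), capitals mark the 88 bases that are also in the window of Col4a4. In the windows of Col4a5 (chrX:109907109-109907408, plus strand) and Col4a6 (chrX:109905895-109906194, minus strand), capitals mark a GC box.
Col4a1: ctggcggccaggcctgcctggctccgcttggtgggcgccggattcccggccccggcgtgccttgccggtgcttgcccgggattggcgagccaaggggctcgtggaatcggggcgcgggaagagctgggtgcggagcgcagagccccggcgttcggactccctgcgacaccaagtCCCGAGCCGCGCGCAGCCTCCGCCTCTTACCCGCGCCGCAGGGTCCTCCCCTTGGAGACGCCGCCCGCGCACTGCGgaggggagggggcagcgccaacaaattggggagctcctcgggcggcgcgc
Col4a3: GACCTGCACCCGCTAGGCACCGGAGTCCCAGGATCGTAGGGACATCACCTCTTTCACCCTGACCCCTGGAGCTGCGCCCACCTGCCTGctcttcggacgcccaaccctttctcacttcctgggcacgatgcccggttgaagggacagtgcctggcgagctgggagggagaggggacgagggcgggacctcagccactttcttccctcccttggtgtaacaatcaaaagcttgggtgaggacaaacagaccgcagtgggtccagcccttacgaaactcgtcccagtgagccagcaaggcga
Col4a5: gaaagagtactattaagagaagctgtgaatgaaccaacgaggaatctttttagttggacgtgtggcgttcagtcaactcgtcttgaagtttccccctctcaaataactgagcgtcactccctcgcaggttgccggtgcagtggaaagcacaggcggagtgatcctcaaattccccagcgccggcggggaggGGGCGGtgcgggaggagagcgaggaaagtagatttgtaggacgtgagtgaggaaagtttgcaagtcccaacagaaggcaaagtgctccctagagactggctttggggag
Col4a6: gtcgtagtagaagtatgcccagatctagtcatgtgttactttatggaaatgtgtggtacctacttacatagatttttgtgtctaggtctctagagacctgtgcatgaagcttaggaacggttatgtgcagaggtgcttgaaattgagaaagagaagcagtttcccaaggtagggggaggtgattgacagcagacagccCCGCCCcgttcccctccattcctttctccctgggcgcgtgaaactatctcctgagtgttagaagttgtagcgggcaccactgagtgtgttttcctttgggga

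The X-linked windows differed from the Col4a1 window in base composition. G and C made up 75.0% of the Col4a1 window and 73.7% of the Col4a2 window, 62.0% and 65.3% of those of Col4a3 and Col4a4, and 53.3% and 48.3% of those of Col4a5 and Col4a6. The GC box GGGCGG, searched on both strands, was found in 5 of the 6 windows, with Col4a4 the exception, against 33.1% of all 33469 RefSeq windows of the same length. The overlapping windows of Col4a1 and Col4a2 hold the same 2 GC boxes, so they are not separate finds. The share over all windows was not matched for G and C. The letters CCAAT, on either strand, were found in the windows of Col4a1 and Col4a2, which overlap, and in 37.5% of all windows. The letters TATAAA were found in 0 of the 6 and in 14.2% of all windows.

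Total counts per deposited library ran from 3020821 to 15719080. Libraries 11 and 12, both from chemotherapy rats, had counts closer to each other (chi-square over degrees of freedom 2.03) than any other pair within a group, the next closest giving 5.16. They were summed as if they were the same sample, which the labels do not state, and are called library 11. On the first principal component of expression, which held 48.4% of the variance, healthy libraries 1, 3 and 4 lay at 27.7, 33 and 42. The other 13 samples lay lower, from -28.1 to 19.8. Even numbers made up 52.3%, 56.5% and 59.5% of counts from 1 to 10 in healthy libraries 1, 3 and 4. In healthy libraries 2 and 5 they made up 46.7% and 51.7%. The range was 47.9% to 53.2% in tumor and 45.9% to 51.3% in deposited chemotherapy libraries. The cause of these differences and their part in the levels of the chains were not tested. The name suffix MB, of unstated meaning, stood on healthy libraries 1 to 4 and on library 11, and VM on all others, so suffix and group are largely tied. Markers of muscle fibers summed to 168648 to 205740 CPM (counts scaled to a common library size) in chemotherapy, 169642 to 239143 CPM in tumor and 209740 to 300220 CPM in healthy samples, and none of them was at 0 in every sample.

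All 5 chains with enough reads to be tested were lowest in tumor with chemotherapy, intermediate in tumor and highest in healthy muscle by group mean, and chemotherapy samples averaged 0.424 to 0.52 times the healthy level in the fit. For each of the 5, every chemotherapy sample lay below every healthy sample, beside 1.97% of all genes tested. In muscle as a whole, fewer cells of a type and less RNA per cell cannot be told apart. Levels in CPM are counts scaled by library size and composition. They are not divided by transcript length, so they compare samples for a chain and not chains with each other.

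Col4a1, the alpha1 chain of the general network, had 162 CPM at the lowest, 195 at the median and 269 at the highest in chemotherapy samples. It had 189, 225, 413, 197 and 276 CPM in tumor libraries 6 to 10, and 465, 378, 611, 604 and 356 CPM in healthy libraries 1 to 5. Library 8 stood above the other tumor libraries and reached into the healthy range, and healthy libraries 3 and 4 were the highest of all. The means were 205 ± 40.9 CPM in tumor with chemotherapy (SD, n = 6), 260.0 ± 92.0 in tumor (n = 5) and 483 ± 121 in healthy muscle (n = 5).

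Col4a2, the partner alpha2 chain, had 78.2 CPM at the lowest, 92.5 at the median and 135 at the highest in chemotherapy samples. In tumor libraries 6 to 10 it had 109, 132, 227, 99.9 and 148 CPM, against 225, 167, 246, 264 and 159.6 CPM in healthy libraries 1 to 5. Library 11 was again the highest chemotherapy sample, and tumor library 8 exceeded healthy libraries 1, 2 and 5. Group means were 99.3 ± 22.4 CPM in tumor with chemotherapy, 143 ± 50.6 in tumor and 212 ± 46.9 in healthy muscle.

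Col4a3, the alpha3 chain, ranged from 14.9 to 23.2 CPM around a median of 20.7 in chemotherapy samples. Tumor libraries 6 to 10 had 22.1, 23.0, 35.5, 15.7 and 35.1 CPM, against 46.1, 38.4, 59.1, 49.6 and 30.3 CPM in healthy libraries 1 to 5. Tumor libraries 8 and 10 were above healthy library 5, and the other tumor libraries were below all healthy ones. Means were 20 ± 2.92 CPM in tumor with chemotherapy, 26.3 ± 8.71 in tumor and 44.7 ± 11 in healthy muscle.

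Col4a4, the alpha4 chain, had 43.9 to 65.1 CPM with a median of 50.3 in chemotherapy samples. It had 47.2, 56.1, 85.7, 47.0 and 65.6 CPM in tumor libraries 6 to 10, against 84.3, 68.1, 140.2, 124 and 82.8 CPM in healthy libraries 1 to 5. The highest chemotherapy sample, library 11, lay just under healthy library 2, so the separation was narrow for this chain. Means were 52.0 ± 7.83 CPM in tumor with chemotherapy, 60.3 ± 16.1 in tumor and 99.8 ± 30.5 in healthy muscle.

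Col4a5, the X-linked alpha5 chain, kept to a narrow band of 23.1 to 28.7 CPM, with a median of 25.4, in chemotherapy samples. Tumor libraries 6 to 10 had 27.0, 25.6, 40.7, 22.4 and 28.9 CPM, against 57.0, 41.2, 81.2, 77.9 and 33.6 CPM in healthy libraries 1 to 5. The spread was widest among the healthy libraries, where library 5, the healthy library with the suffix VM, was the lowest. Means were 25.6 ± 1.88 CPM in tumor with chemotherapy, 28.9 ± 7.01 in tumor and 58.2 ± 21.3 in healthy muscle.

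Col4a6, the alpha6 chain, was at the edge of detection and did not pass the filter on low counts, so it was not tested. It had 10 reads in library 11 and 0, 5, 0, 1 and 2 reads in chemotherapy libraries 13 to 17. Tumor libraries 6 to 10 had 5, 5, 4, 5 and 4 reads, against 1, 0, 12, 3 and 4 reads in healthy libraries 1 to 5. Counts of 0 in libraries 13 and 15 allow up to 0.907 and 0.935 CPM, and that in healthy library 2 up to 0.823 CPM, which covers counting error only (3 reads each). No group stood apart at this depth, with 0 to 0.517 CPM in chemotherapy, 0.38 to 0.848 CPM in tumor and 0 to 1.15 CPM in healthy samples.

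**Figure D1:**
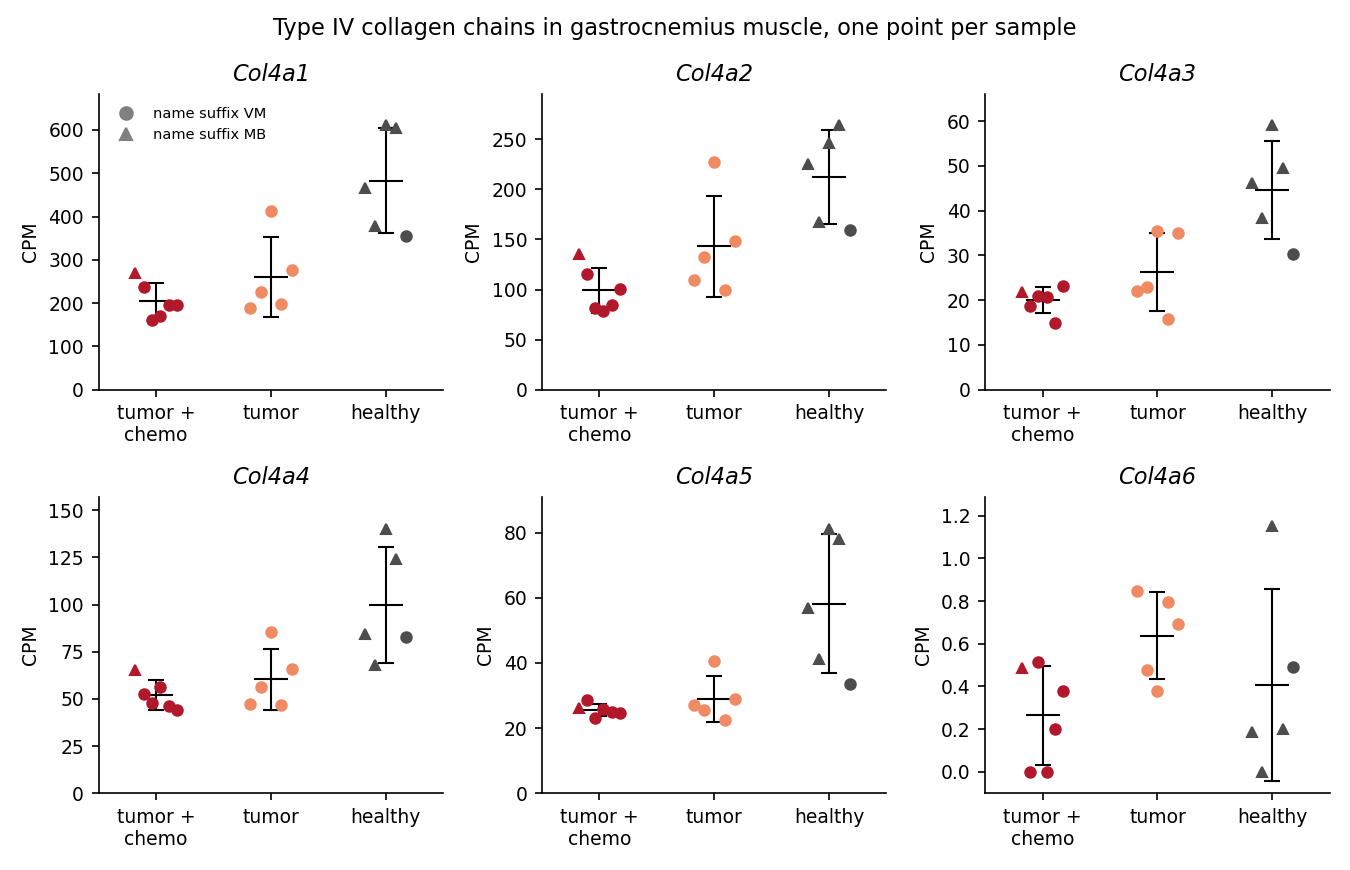
Level of each chain in CPM (vertical axes, each with its own scale) in every sample of tumor with chemotherapy, tumor and healthy muscle; horizontal lines are means, bars are SD, circles are libraries with the suffix VM and triangles those with MB. For Col4a1 the chemotherapy samples lie between 162 and 269 CPM, below the 356 to 611 CPM of the healthy samples, while Col4a6 stays at 1.15 CPM or less.

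In tumor with chemotherapy against healthy muscle, Col4a1 had a log2 fold change of -1.24 ± 0.207 (SE), the largest of the chains. Col4a5 followed at -1.20 ± 0.203 and Col4a3 at -1.16 ± 0.204, and Col4a2 at -1.09 ± 0.207 and Col4a4 at -0.94 ± 0.193 came last. These 5 values lie within about 0.3 of each other, beside standard errors of 0.193 to 0.207. Those are errors of each chain alone and not of a difference between chains. All 5 tested chains were called lower at an adjusted p below 0.05 in edgeR's quasi-likelihood test, beside 6.41% of all 11856 genes tested, and by the DESeq2 Wald test, beside 9.43% of genes. All 5 had chemotherapy samples wholly below healthy samples, beside 1.97% of all genes. Because this contrast took part in the choice of the family, nothing is read from these counts. None of the 5 was called with the suffix as a term, with VM libraries only, or without healthy libraries 1, 3 and 4, nor without healthy library 1, 3 or 4 or chemotherapy library 13, 14 or 15 alone, and in each of these fits no gene of the whole table was called. In the fits without 1 of those 6 libraries the fold changes were close to the full fit, from -1.28 to -1.15 for Col4a1 and from -1.23 to -1.06 for Col4a5, at edgeR adjusted p from 0.0571 to 0.0836. With VM libraries only, where healthy library 5 is the single healthy sample and is assumed to vary like the others, the fold changes were -0.89 for Col4a1, -0.80 for Col4a2, -0.62 for Col4a3, -0.75 for Col4a4 and -0.41 for Col4a5.

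In tumor against healthy muscle, the chains were again lower by fitted value, with Col4a5 the furthest at -1.01 ± 0.212 on the log2 scale. Col4a1 stood at -0.89 ± 0.217, Col4a3 at -0.77 ± 0.211, Col4a4 at -0.73 ± 0.202 and Col4a2 at -0.57 ± 0.216. None of the 5 chains was called, beside 0% of all genes in edgeR and limma-voom, while 5 of the 5 and 2134 of the 11856 genes had an unadjusted p below 0.05. The DESeq2 Wald test called Col4a1 and Col4a5 lower, beside 0.159% of genes. Without healthy library 2 edgeR called 4 of the 5, beside 2.16% of genes. Without healthy library 5 it called Col4a5, which was itself the only gene called lower in that fit (0.00834% of genes). The small p of Col4a5 in this contrast took part in the choice of the family. Tumor libraries below every healthy library numbered 4 of 5 for Col4a1, Col4a2, Col4a4 and Col4a5 and 3 of 5 for Col4a3. No chain thus had every tumor library below every healthy library, which held for 0.557% of all genes.

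Tumor with chemotherapy against tumor asks what chemotherapy adds in tumor-bearing rats. No chain was called after adjustment over all genes. Col4a2 had the largest difference, a log2 fold change of -0.53 ± 0.207, with an unadjusted p of 0.0194 and an adjusted p of 0.778 in edgeR's quasi-likelihood test with Benjamini-Hochberg adjustment. Col4a3 was at -0.39 ± 0.206, Col4a1 at -0.34 ± 0.207, Col4a4 at -0.21 ± 0.194 and Col4a5 at -0.18 ± 0.205, with adjusted p from 0.778 to 0.834 in the same edgeR test. edgeR and limma-voom called 0% of all genes here, with 685 of 11856 at an unadjusted p below 0.05 in edgeR, and DESeq2 called 3 genes, none of them a chain. Groups overlapped for every chain, where 0.295% of all genes had chemotherapy samples wholly below tumor samples. For Col4a2, Col4a3, Col4a4 and Col4a5, 5 of the 6 chemotherapy samples lay below the tumor median, with 4 of 6 for Col4a1. The share of all genes with as many samples below that median was not computed. Tumor library 8 weighed on the fold changes. Without it they were -0.30 for Col4a2, -0.26 for Col4a3, -0.12 for Col4a1, -0.06 for Col4a4 and -0.03 for Col4a5. A p above the threshold does not show that the groups were alike.

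**Figure D2:**
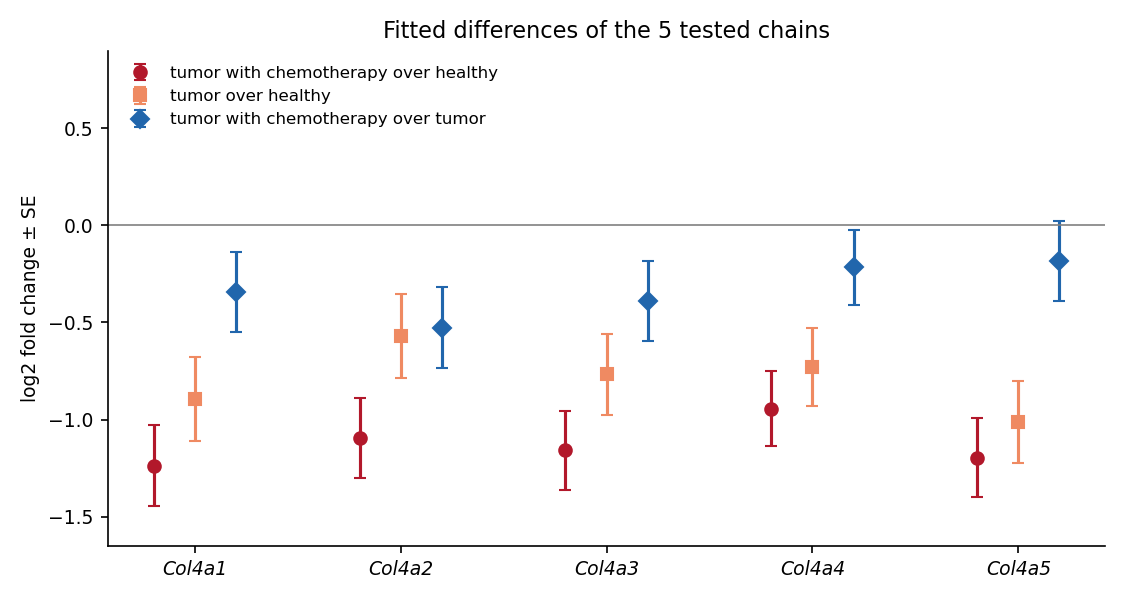
Fitted log2 fold change (vertical axis) with its SE for the 5 tested chains in tumor with chemotherapy over healthy, tumor over healthy, and tumor with chemotherapy over tumor. The first 2 sets share the healthy samples, and Col4a1 stands at -1.24 in the first, -0.89 in the second and -0.34 in the third.

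The ratio of 2 chains within a library does not depend on how libraries are scaled. By this measure Col4a2 was lower relative to Col4a1 in tumor with chemotherapy than in tumor. The reads of Col4a2 per read of Col4a1 came to 0.502, 0.487, 0.507, 0.457, 0.432 and 0.516 in chemotherapy libraries 11 and 13 to 17. In tumor libraries 6 to 10 the ratio was 0.575, 0.586, 0.55, 0.506 and 0.535. Of the 6 chemotherapy libraries, 4 lay below all tumor libraries, and libraries 14 and 17 reached just past tumor library 9. The mean was 0.483 ± 0.033 in tumor with chemotherapy and 0.551 ± 0.032 in tumor (SD, n = 6 and 5). The difference of log2 ratios was -0.19 ± 0.055 (SE), or 0.877-fold, with a two-sided exact permutation p of 0.013 and an adjusted p of 0.026 over the 2 ratios tested, where the smallest p possible was 0.00433. When any sample was left out the difference stayed between -0.22 and -0.16, with exact permutation p adjusted in the same way from 0.019 to 0.0571. The call was lost at 0.0571 without tumor library 6, 7, 8 or 10. The family was chosen partly on both chains in these chemotherapy samples, so p-values of this ratio are not independent of that choice. The counting error of a single library's ratio was 3.29% to 10.8% in these groups, if mates of a read pair were counted apart.

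In healthy libraries 1 to 5 the same ratio was 0.484, 0.441, 0.403, 0.436 and 0.448, with a mean of 0.443 ± 0.029. All 5 tumor libraries were above all 5 healthy ones, a log2 difference of 0.32 ± 0.057, and the chemotherapy mean lay between, 0.13 ± 0.059 above healthy, while single chemotherapy libraries overlapped both groups. By mean, the order of the groups for this ratio, highest first, was tumor, tumor with chemotherapy, healthy, unlike the order of the levels. The healthy differences are descriptions and were not tested. The share of all gene pairs whose ratio separates these groups was not computed, so how common such a separation is remains unknown.

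The ratio of the X-linked Col4a5 to Col4a1 gave no such separation. It averaged 0.128 ± 0.019 in tumor with chemotherapy, 0.115 ± 0.017 in tumor and 0.118 ± 0.016 in healthy muscle. The log2 difference of tumor with chemotherapy minus tumor was 0.15 ± 0.128, with an exact permutation p of 0.26 (adjusted p = 0.26 over the 2 ratios). Reads of Col4a4 per read of Col4a3 averaged 2.63 ± 0.456 in tumor with chemotherapy, 2.37 ± 0.418 in tumor and 2.24 ± 0.421 in healthy muscle, and those of Col4a3 per read of Col4a1 0.101 ± 0.024, 0.102 ± 0.02 and 0.093 ± 0.009 in the same groups. All of these overlapped between groups.

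**Figure D3:**
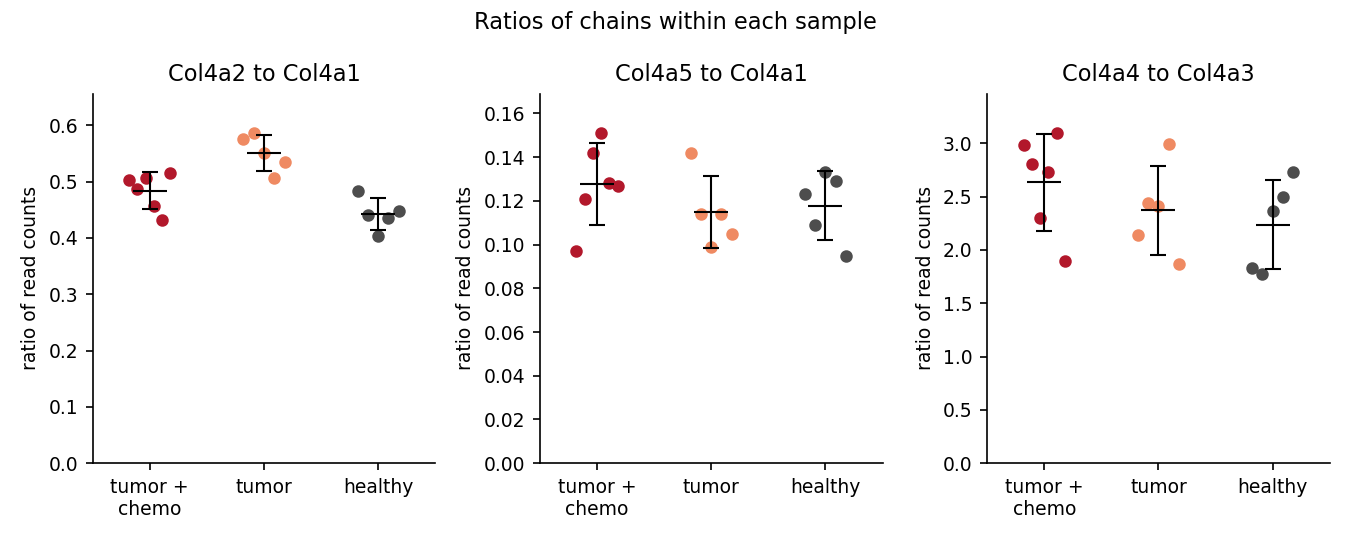
Ratio of read counts (vertical axes, from 0) of Col4a2 to Col4a1, Col4a5 to Col4a1 and Col4a4 to Col4a3 in every sample of tumor with chemotherapy, tumor and healthy muscle, with mean and SD. The Col4a2 to Col4a1 ratio lies between 0.432 and 0.516 in chemotherapy samples, between 0.506 and 0.586 in tumor samples and between 0.403 and 0.484 in healthy samples.

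Within groups the chains varied together from sample to sample. Each chain's log2 CPM was centred on its group mean, so that differences between groups do not enter, and the 10 pairs of tested chains were correlated over the 16 samples. Col4a1 and Col4a2 had Pearson's r of 0.968 and Spearman's rho of 0.974, with permutation p adjusted over the 10 pairs of 0.0002 and 0.0001, and r of 0.942 without libraries 8 and 11, the 2 farthest from the median. Col4a3 and Col4a4, the next head-to-head pair, had r of 0.722 and rho of 0.726, and r of 0.715 without libraries 5 and 9. Across all 10 pairs r ran from 0.712 to 0.968, all at an adjusted p below 0.05, and from 0.627 to 0.942 without the 2 farthest samples. The share of all gene pairs with such an r was not computed. Among 8835 genes ranked by likeness to Col4a1, Col4a5 came at 123 and Col4a3 only at 754. Pairs with Col4a3 were the loosest, at 0.712 with Col4a1, 0.747 with Col4a2, 0.722 with Col4a4 and 0.747 with Col4a5. Without healthy libraries 1, 3 and 4, 5 of the 10 pairs passed, with r from 0.614 to 0.971, and from 0.383 to 0.917 when the 2 farthest samples were also left out. All chains of a library share its scaling and depth, whose part in these correlations was not tested. With scaling by total counts alone 10 of 10 pairs passed. On the first principal component tumor libraries 6 to 10 lay at -20.9, -9.6, 19.8, -12.1 and 13.8, the rank order of their Col4a1 levels. Chemotherapy library 11 and healthy libraries 1, 3 and 4 were the highest of their groups on both, but the full order differed in those groups. The part of this component in the correlations was not tested.

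**Figure D4:**
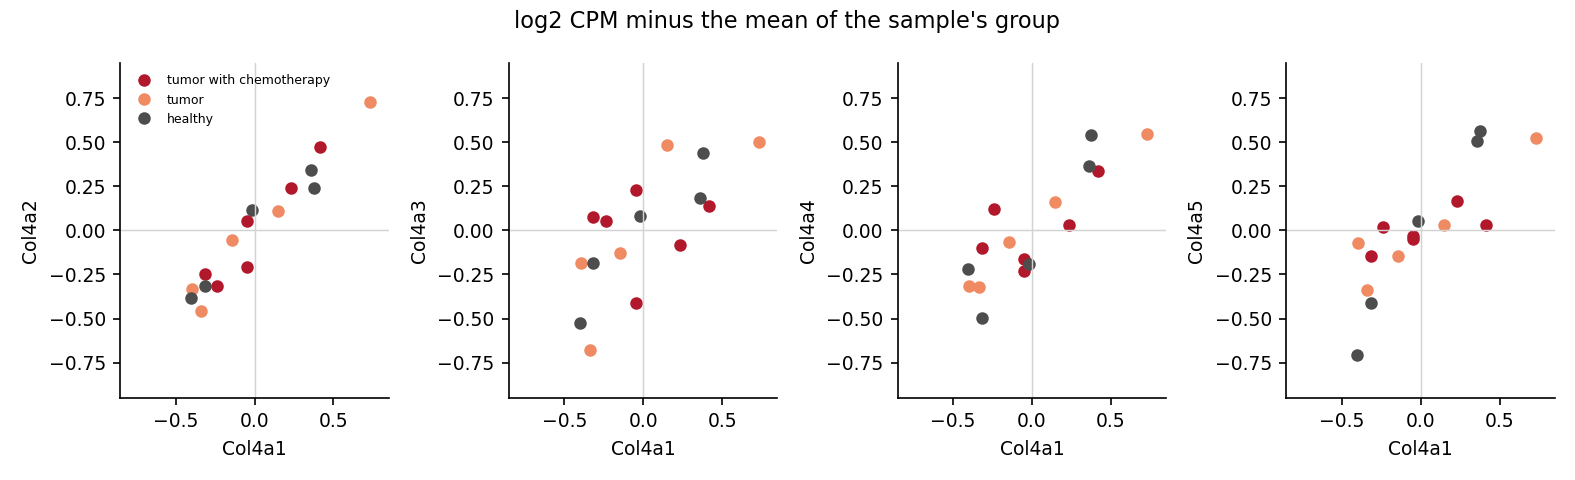
Log2 CPM minus the mean of the sample's group for Col4a2, Col4a3, Col4a4 and Col4a5 (vertical axes) against Col4a1 (horizontal axes), with a point per sample, coloured as tumor with chemotherapy, tumor or healthy. Col4a2 follows Col4a1 most closely, with r of 0.968, and Col4a3 most loosely, with r of 0.712.

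Ranked by the same centred correlation among 8835 genes with at least 5 CPM on average, the gene most like Col4a1 was Col4a2. It was followed by Lamc1, the gamma1 chain of laminins, at 0.961, then Cdon, a cell-surface receptor, at 0.932, Adamts2, which trims fibrillar procollagens, at 0.924, and Fn1, fibronectin, at 0.916. Of the other chains, Col4a4 ranked 43 at 0.868, Col4a5 ranked 123 at 0.836 and Col4a3 ranked 754 at 0.712. For Col4a5 the closest genes were Egfr at 0.848, Trim35 at 0.845, Phf21a at 0.84, Nsf at 0.837 and Col4a1 at 0.836, with Col4a4 ranked 17, Col4a2 ranked 52 and Col4a3 ranked 123. These are descriptions over 16 samples that share library scaling.

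Among genes that act with type IV collagen, the other basement membrane proteins were lower along with the chains in tumor with chemotherapy than in healthy muscle. Of 15 tested, 9 were called lower and none higher by edgeR at an adjusted p below 0.05, beside 6.41% lower and 7.3% higher of all genes, and their median log2 fold change was -0.78 beside -0.02 for all genes. The laminin chain gene Lamc1 averaged 289 ± 35.9 CPM in tumor with chemotherapy and 551 ± 113 CPM in the healthy group, which is -0.93 on the log2 scale. Its partner Lamb1 averaged 105 ± 16.4 against 235 ± 93.1 CPM (-1.16), and Lama2, the laminin alpha chain of the muscle fiber sheath, 270.3 ± 25.7 against 476 ± 107 CPM (-0.82). Nid1, the nidogen that links laminin to type IV collagen, averaged 135 ± 27.2 CPM in tumor with chemotherapy against 282 ± 111 in healthy muscle (-1.06). Lama5 stood at -0.82 and Col15a1, a collagen of the outer basement membrane zone, at -0.81.

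On the crosslinking and turnover list, 4 of 12 tested genes were called lower, beside 6.41% of all genes, with a median of -0.50. The list holds enzymes that crosslink or cut the network and Timp genes, whose products inhibit such proteases. No Timp gene was called. Pxdn, peroxidasin, which makes the sulfilimine bonds of type IV collagen, averaged 33.9 ± 9.3 CPM in tumor with chemotherapy and 56.6 ± 13.3 in healthy muscle (-0.74). Loxl2, a lysyl oxidase that crosslinks it, averaged 21.0 ± 9.64 against 43.2 ± 11.2 CPM (-1.01). The proteases were lower as well, Mmp2, a gelatinase that cuts type IV collagen, at 85.6 ± 24.0 against 146 ± 34.3 CPM (-0.76) and Mmp14, which activates it, at 28.9 ± 7.51 against 52.6 ± 17.3 CPM (-0.87). Of 15 chaperones and modifying enzymes 1 was called lower, a share close to the 6.41% of all genes, and 0 with DESeq2 size factors, with a list median of -0.46. The called gene was Ppib, a prolyl isomerase of the collagen folding machinery, at 43.9 ± 9.34 against 70.8 ± 24.3 CPM (-0.69). Of 9 receptors 2 were called lower, and 1 with DESeq2 size factors, with a list median of -0.32. Both were collagen receptor kinases, Ddr1 at -0.47 and Ddr2, better known as a receptor of fibrillar collagens, at -0.79.

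TGF-beta signaling is known to raise collagen transcription. Of 12 genes of that pathway tested, 1 was called higher, a share close to the 7.3% of all genes, and none lower. Tgfbr1, the type I receptor, averaged 27.3 ± 3.87 CPM in tumor with chemotherapy against 17.3 ± 5.37 CPM in healthy muscle (0.68 on the log2 scale), while the list median was -0.09. Scaling by total counts moved the median of all genes to 0.12 and this list's median to 0.05. It left 8 of the 15 basement membrane genes, 2 of the 12 crosslinking and turnover genes, 0 receptors and 0 chaperones called lower, with 2.94% of all genes called lower. Higher genes then made up 82.7% of all calls, against 53.2% in the main scaling, and the 5 chains remained called lower, with log2 fold changes from -1.09 for Col4a1 to -0.81 for Col4a4. No gene of these 5 lists was called in tumor against healthy or in tumor with chemotherapy against tumor by edgeR, where 0% of all genes were. The calls against healthy muscle fell to 0 in the same fits as those of the chains.

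**Figure D5:**
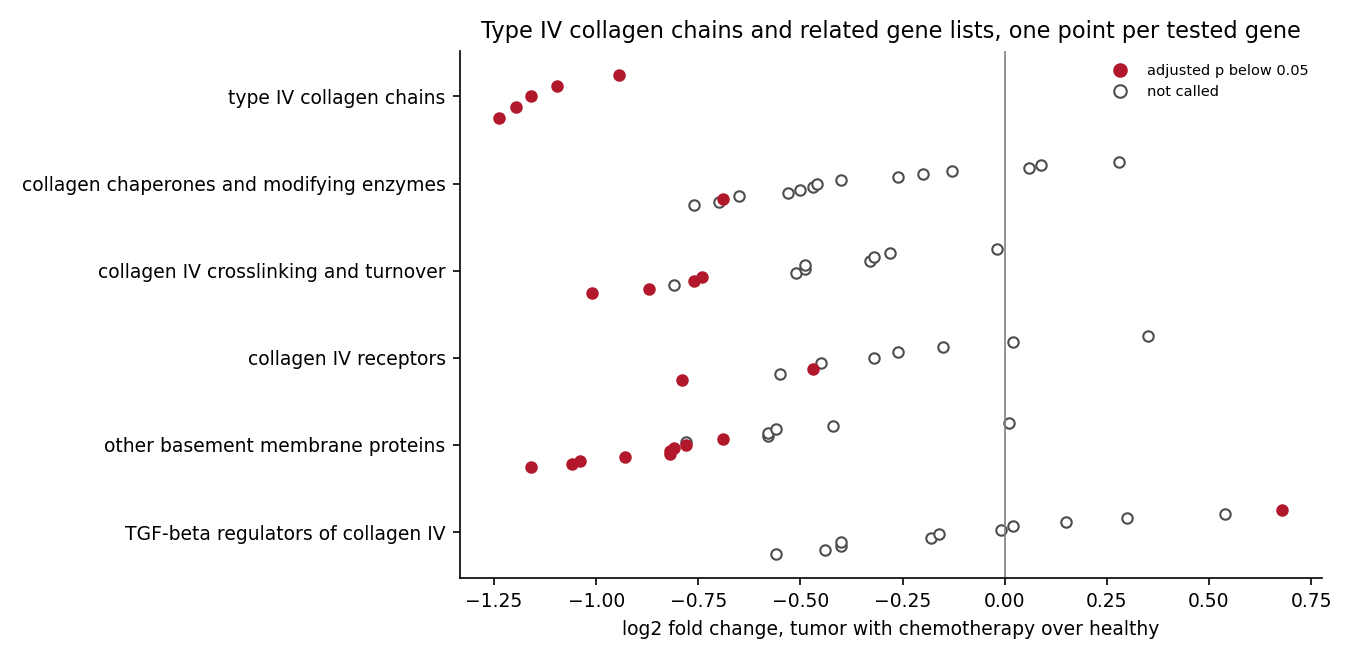
Log2 fold change of tumor with chemotherapy over healthy (horizontal axis) for each tested gene of the type IV collagen chains and of 5 related lists; filled points have an adjusted p below 0.05 in edgeR. The 5 chains lie between -1.24 and -0.94, and the basement membrane list has a median of -0.78.

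Markers of cells that make basement membrane were measured beside the chains. In tumor with chemotherapy against healthy muscle, 5 of 10 tested pericyte and smooth muscle markers were called lower by edgeR, with a median log2 fold change of -0.62, beside 6.41% of all genes lower and 7.3% higher. The 11 such markers in the table summed to 449.7 to 624 CPM in chemotherapy, 623 to 847 CPM in tumor and 681 to 776 CPM in healthy samples. Of 10 fibroblast markers 3 were called lower, with a median of -0.61, and their sum was 3292 to 12808 CPM in chemotherapy, 3974 to 14891 CPM in tumor and 6264 to 16327 CPM in healthy samples. Col1a1, which was not called, made the largest part of this sum. It averaged 2790 ± 2763 CPM in chemotherapy, 5443 ± 3975 CPM in tumor and 5751 ± 4021 CPM in healthy samples. Of 10 endothelial markers 1 was called lower and 1 higher, with a median of -0.10, and their sum was 274 to 369 CPM in chemotherapy, 315 to 424 CPM in tumor and 346 to 390.3 CPM in healthy samples. Muscle fiber markers were called lower for 3 of 9 (median -0.38) and satellite cell markers for 1 of 3 (median -0.45), while 1 of 4 adipocyte markers was called higher (median 1.89). No call was made among 5 Schwann cell, 7 macrophage and 5 tenocyte markers, whose medians were 0.29, -0.18 and 0.07. No marker of any list was at 0 in every sample. The marker calls fell to 0 in the same fits as those of the chains. The part of these cell types in the levels of the chains was not tested.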

How the data were processed

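The deposited table gives unnormalised read counts per gene in 17 libraries. The submitters' processing notes name TopHat2 2.0.10, Bowtie2, CASAVA 1.9, FastQC 0.11.4 and Trim Galore 0.4.1; genome build, annotation and counter: not given in the sources used here. Of 32883 entries, 388 had no gene name, held at most 0.373% of a library's counts and were left out. Libraries 11 and 12 were summed, giving 16 samples. The main test was edgeR 4.0.16 under R 4.3.3 (TMM scaling, filterByExpr with a minimum count of 10, robust quasi-likelihood fit of all 16 samples with a mean per group, 13 residual degrees of freedom), with Benjamini-Hochberg adjustment over the 11856 genes tested and calls at an adjusted p below 0.05. SE is the size of the log2 fold change over the square root of F. The fit was tested on simulated data, drawn for each gene on its own, with no variation shared between genes beyond library size. That simulation therefore cannot speak for the calls made here. Ratios of counts, with a pseudocount of 0, were compared by exact permutation and centred correlations by 100000 permutations within groups.

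The members and gene lists were chosen with earlier results of these data known. Named genes are all chains, up to 6 called genes of each pathway list by smallest p, and the 5 genes most like Col4a1 and Col4a5. Markers are given as counts and sums, with Col1a1 named as the largest part of its sum. Alternatives were DESeq2 1.42.0 (size factors and Wald test), limma-voom (limma 3.58.1), total counts, no filter, 17 libraries, the suffix as a term, VM libraries only, 1 surrogate variable (sva 3.50.0), only the 2 groups compared, and fits leaving out libraries.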

Additional observations from a re-analysis of the deposited data

How the results depend on the processing

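No paired analysis was possible because each library number occurs in 1 group only. In tumor with chemotherapy against healthy muscle, 5 chains and 32 listed pathway and marker genes were called by edgeR. Both counts were 0 with the suffix as a term, with VM libraries only, without healthy libraries 1, 3 and 4, and without healthy libraries 3 and 4, the last chosen after seeing the data; the cause was not tested. Leaving out single samples gave 0 to 5 chains and 0 to 55 listed genes, with 0 of both without healthy library 1, 3 or 4 or chemotherapy library 13, 14 or 15. The other alternatives kept all 5 chains. In tumor against healthy, 0 chains and 0 listed genes were called; the DESeq2 Wald test called 2 chains and 1 listed gene, and leaving out single samples gave 0 to 4 chains and 0 to 10 listed genes. In tumor with chemotherapy against tumor, 0 chains and 0 listed genes were called under every alternative run. The log2 ratio of Col4a2 to Col4a1 kept its direction, between -0.218 and -0.157 when single samples were left out, but its adjusted p reached 0.0571 without tumor library 6, 7, 8 or 10. Within-group correlations passed for 10 pairs of chains, and for 5 without healthy libraries 1, 3 and 4. Of the values for single chains under alternatives, 363 kept direction and side of the threshold, 50 fell short of it, 7 newly passed it and 0 reversed. With 0 to 12 reads per library, Col4a6 was too sparse for a difference between groups to be detectable.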
